A study of Mus musculus with 9 samples.

Results

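Cathepsins are the proteases of the lysosome, and cystatins are the small proteins that hold the cysteine cathepsins in check. The 9 genes described here, chosen by symbol, were the 7 cathepsins Ctsl, Ctsb, Ctsd, Ctss, Ctsz, Ctsh and Ctsa and the 2 cystatins Cstb and Cst3, of 54532 genes counted. All 9 were among the 12012 genes that passed a filter on low counts and were tested. They were measured by RNA sequencing of bone marrow neutrophils of wild type C57/B6 mice after 12 h at 0.5% FBS (fetal bovine serum). Neutrophils were kept alone or co-cultured in DMEM with PyMT-M or PyMT-N cells, and each of the 3 groups had 3 libraries labelled as biological replicates. PyMT is the polyoma virus middle T antigen, used to drive mammary tumours in mice, and the sources used here do not say what N and M stand for. Both co-cultures were put through fluorescence-activated sorting to recover the neutrophils, while no sort is named for the cells kept alone, so co-culture and sorting cannot be told apart in a comparison with them. Whether the replicates came from separate mice is not given, and the p-values measure the spread between these libraries.

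Cathepsins are made as inactive precursors, tagged with mannose 6-phosphate, carried to the lysosome by receptors and activated there by cleavage in acid. Cathepsins L, B, S, Z and H are cysteine proteases of the papain family, cathepsin D is an aspartic protease, and cathepsin A is a serine carboxypeptidase that also shields other lysosomal enzymes from breakdown. Stefin B, encoded by Cstb, inhibits cysteine cathepsins in the cytosol, and cystatin C, encoded by Cst3, is secreted and inhibits them outside the cell. Many lysosomal genes are known targets of the TFEB family of transcription factors, which bind a site with the core TCACGTG. In neutrophils, cathepsins serve in the breakdown of ingested material and, when released, in the cleavage of matrix and of other proteins.

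Neutrophils co-cultured with PyMT-N cells had higher messenger RNA of Ctsl, Ctsb and Cstb and lower Ctss, Ctsh and Ctsa than neutrophils kept alone. Of these calls, that of Ctsb was lost in 5 and that of Cstb in 8 of 23 other ways of processing, and those of the 3 lower genes were lost when libraries were scaled to genes of all leukocytes (-0.23, -0.01 and -0.24 on the log2 scale). Co-culture with PyMT-M cells went with higher Ctsl and lower levels of the other 8 genes, values that for 7 of these 8 were above 0 with that scaling (Ctsd was the exception). Between the co-cultures, Ctsl, Ctsb, Ctsd and Cstb were higher with PyMT-N cells under all 23, and Ctsz and Cst3 were higher with calls lost in 2 and 13 of them. Ctsl stood at 111 ± 7.97 normalised CPM (counts scaled to the size of the library; mean ± SD, n = 3) in cells kept alone, 369 ± 57.3 with PyMT-M cells and 1043.5 ± 57.0 with PyMT-N cells. It had the highest fold change of the 9 genes in both comparisons with cells kept alone under the main processing and each of 23 others, counted as 24 of 24 settings. Settings that changed only the threshold repeat the main fold changes, and rescaling moves all genes nearly alike. Such settings could therefore hardly change the order.

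Library totals ran from 1641049 to 4524563 counts, and a floor of 3 counts stood for 0.573 to 2.26 normalised CPM. Alone replicate 3 was the shallowest library and had 1.75% of its counts in mitochondrial messenger RNA, against 0.180% to 0.769% in the other 8. Leaving it out left the counts of the 9 genes called under trimmed-mean scaling as they were. The 19 neutrophil markers, all above 0 in each group, summed to 46424 ± 7299 normalised CPM alone, 20623 ± 2489 with PyMT-M cells and 23774 ± 2632 with PyMT-N cells. The 21 epithelial markers summed to 105 ± 31.2, 147 ± 31.5 and 3066 ± 439 in that order, with 7, 5 and 1 of them at 0, and Epcam, an epithelial adhesion molecule, stood at 0, 1.92 and 190.3. The 22 mesenchymal markers summed to 1827 ± 136, 4076 ± 341 and 2369 ± 138, with 7, 5 and 6 of them at 0. Without Vim, which leukocytes also express, they summed to 435 ± 34.4, 1369.7 ± 22.9 and 1875 ± 158, so the order of the co-cultures turned. Of 16 tested mesenchymal markers, 4 were called higher and 8 lower with PyMT-N than with PyMT-M cells. Fn1 stood at 884 with PyMT-N and 1.22 with PyMT-M cells, and Col3a1 at 0 and 233. The monocyte and macrophage markers without Lyz2, which neutrophils also express, summed to 1659 ± 357, 744 ± 147 and 2462 ± 284, and Cd14 made up 1497 of the last. C1qa, a macrophage gene, was at 0 in cells kept alone, and no other marker of the list was at 0 in a whole group. B cell markers summed to 865 ± 455 alone, 99.4 ± 23.8 with PyMT-M cells and 19.4 ± 3.04 with PyMT-N cells, and dendritic cell markers stood at 748 ± 290.4, 110.5 ± 14.9 and 161 ± 21.7. In such bulk libraries, fewer cells of a type and less RNA per cell cannot be told apart. The part of these other transcripts in the results below was not tested.

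The scale on which a fall is read matters for these genes. Normalisation was by the trimmed mean of M values, under which 24 tested genes that all leukocytes express (the pan-leukocyte genes, such as the CD45 gene Ptprc) had a median log2 fold change of -1.37 (SD 0.97 over genes) with PyMT-N cells and -1.68 (SD 0.39) with PyMT-M cells against alone. Of these 24 genes, 19 were called lower and 2 higher with PyMT-N cells, and 24 were called lower with PyMT-M cells. Scaling to them moved the log2 fold changes of all genes by a median of 1.12 in the comparison of PyMT-N co-culture with alone. This median shift was 1.54 for PyMT-M co-culture against alone and -0.41 between the co-cultures. By library totals it was 0.29, 0.50 and -0.21 in the same order, and by relative log expression 0.11 for PyMT-M co-culture against alone. Falls of the 9 genes against cells kept alone are therefore given below with their value on the leukocyte scale, which is scaling to these 24 genes.

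All 9 genes are protein coding and lie on 7 chromosomes of GRCm38. Ctsl (ENSMUSG00000021477) lies at chr13:64359337-64370890 on the minus strand, Ctsb (ENSMUSG00000021939) at chr14:63122462-63145923 on the plus strand, Ctsd (ENSMUSG00000007891) at chr7:142375911-142388038 on the minus strand and Ctss (ENSMUSG00000038642) at chr3:95526786-95556403 on the plus strand. Chromosome 2 holds 3 of them, Ctsz (ENSMUSG00000016256) at chr2:174427493-174439039 on the minus strand, Ctsa (ENSMUSG00000017760) at chr2:164832873-164841032 on the plus strand and Cst3 (ENSMUSG00000027447) at chr2:148871722-148875692 on the minus strand. Ctsh (ENSMUSG00000032359) lies at chr9:90054152-90076089 and Cstb (ENSMUSG00000005054) at chr10:78425669-78427622, both on the plus strand. Some members share exon sequence with a neighbour: exons of Ctsb and of Fdft1, a sterol synthesis gene on the opposite strand, overlap over 774 bp, and those of Ctsa and of Pltp, on the opposite strand, over 495 bp. The predicted genes that overlap exons of Ctsl and Ctsd (Gm47123, Gm49230 and Gm49369) were at 0 in all libraries.

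Promoter windows from 250 bases before to 50 after a transcript's start, from RefSeq on GRCm38.p6, were matched for 6 of the 9 genes in 7 windows, and Ctsb, Ctsh and Cstb had no entry in the table used. They were searched on both strands for CACGTG, the E-box, for the longer TCACGTG, which contains it, and for a pair of GAAA with 2 bases between them, the core of the interferon-stimulated response element. Of all 32851 windows of that length, 7.15% held CACGTG, 3.77% TCACGTG and 3.44% the GAAA pair. The stretches with a match are shown because they set Ctsd and Ctsa, which have the TFEB-type core at 2 places each, beside Ctsl and Ctss, which do not, with capitals for TCACGTG read on either strand (in Ctsl for CACGTG and in Ctss for the GAAA pair).
Ctsd, chr7:142388048-142388077, minus strand, bases -250 to -221: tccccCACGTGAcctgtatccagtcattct
Ctsd, chr7:142387909-142387938, minus strand, bases -111 to -82: ctcgcccgcgtcTCACGTGAcccgttgagg
Ctsa, chr2:164833759-164833788, plus strand, bases -14 to 16: gTCACGTGAtgcagatgcTCACGTGAccag
Ctsl, chr13:64370741-64370770, minus strand, bases -250 to -221: gcggcgttagaagcCACGTGctgatctaaa
Ctss, chr3:95526686-95526785, plus strand, bases -100 to -1: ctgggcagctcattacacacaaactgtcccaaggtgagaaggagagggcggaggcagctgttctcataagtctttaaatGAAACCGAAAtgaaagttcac
The windows of Cst3, of Ctsz and of the other start of Ctsa had no match to any of the 3 motifs. The Ctsa stretch, which crosses the start its window is placed on, and the Ctsd stretch nearer the start lie within annotated exons of the same gene. So do 13 of the 30 bases of the Ctsl stretch. A match is a description of these letters and not a measured binding site.

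Of the 9 genes, 3 were called higher with PyMT-N cells than alone at an adjusted p under 0.05 (Ctsl, Ctsb and Cstb), 3 lower (Ctss, Ctsh and Ctsa) and 3 neither (Ctsd, Ctsz and Cst3), where 53% of all tested genes were called, 29.4% higher and 23.6% lower. On the leukocyte scale 6 were called higher (Ctsl, Ctsb, Ctsd, Ctsz, Cstb and Cst3) and 0 lower, where 58.2% of all tested genes were called higher and 6.82% lower. With PyMT-M cells 1 was called higher (Ctsl) and 8 lower, where 56.1% of all tested genes were called, 28.2% higher and 27.9% lower. Its leukocyte-scale counts were 5 higher and 0 lower, where 64.9% of all tested genes were called higher and 2.05% lower. Between the co-cultures 6 were called higher with PyMT-N cells (Ctsl, Ctsb, Ctsd, Ctsz, Cstb and Cst3) and 0 lower, where 34.6% of all tested genes were called, 19.1% higher and 15.5% lower. With leukocyte scaling 4 were called higher and 1, Ctsa, lower, where 11.9% of all tested genes were called higher and 27.6% lower. The median log2 fold change of the 9 genes was -0.11 for PyMT-N co-culture against alone, -0.97 for PyMT-M co-culture against alone and 0.85 between the co-cultures, beside 0.12, -0.03 and -0.02 for all tested genes. The groups did not overlap for 6 of the 9 genes between PyMT-N co-culture and alone (56.7% of all tested genes), for 9 of 9 between PyMT-M co-culture and alone (57.9%) and for 6 of 9 between the co-cultures (52.9%). Both comparisons with alone use the same 3 alone libraries, so their values stand side by side and were not correlated.

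**Figure D1:**
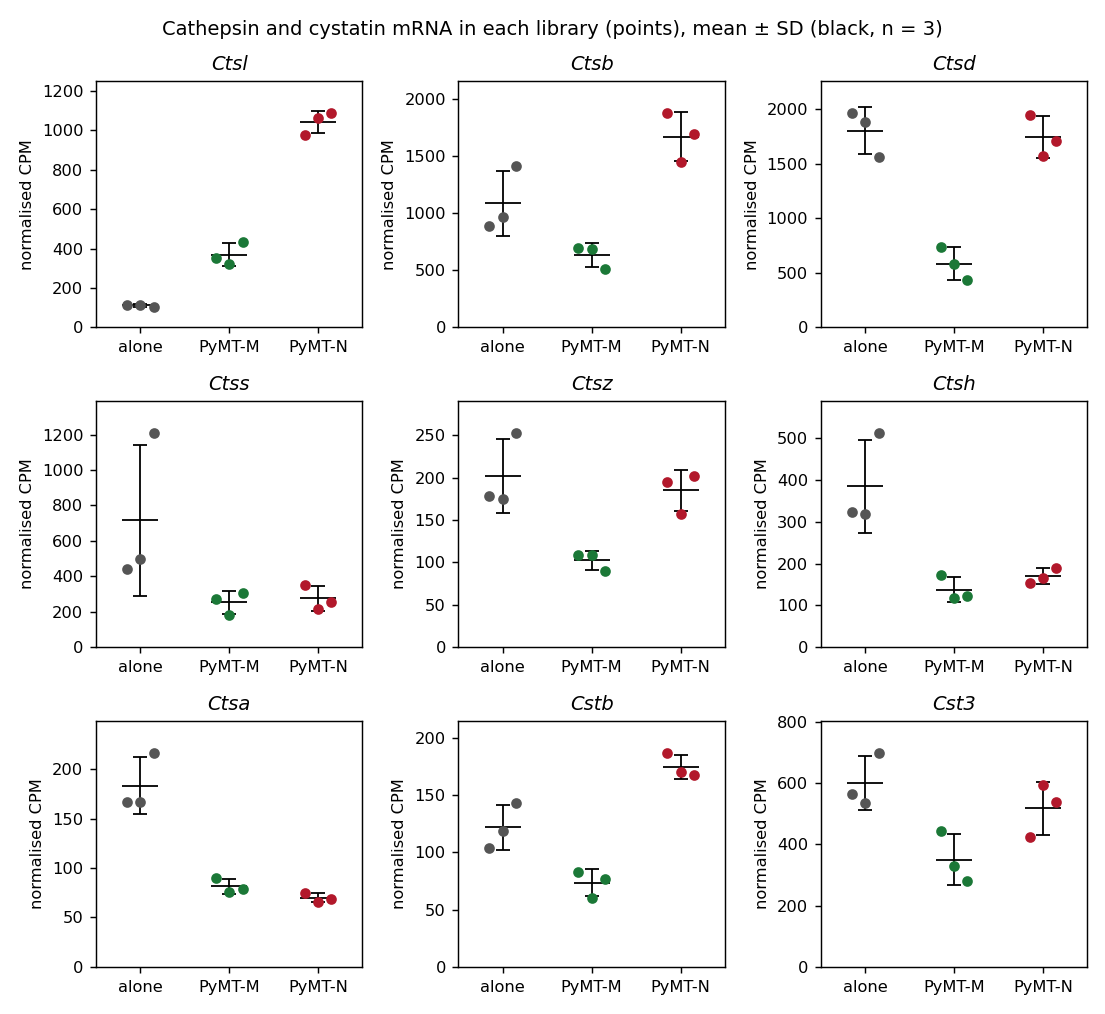
Normalised CPM of the 9 genes (vertical axes, each from 0) in neutrophils kept alone, with PyMT-M cells and with PyMT-N cells, with a point per library and the mean ± SD of 3 in black. Ctsl steps up from 111 to 369 to 1043.5 with no overlap between groups, while the other 8 have their lowest group mean in a co-culture on this scale, 7 of them with PyMT-M cells and Ctsa with PyMT-N cells.

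Ctsl encodes cathepsin L, an endopeptidase of broad specificity and one of the strongest of the lysosome. It had 115, 116 and 102 normalised CPM in the alone libraries 1 to 3, 353, 321 and 433 with PyMT-M cells and 979, 1063 and 1088 with PyMT-N cells. The 3 groups did not overlap, and the values within a group lay close together. The rise with PyMT-N cells was 9.36-fold, a log2 fold change of 3.23 ± 0.18 (SE; adjusted p = 2.18e-09, edgeR quasi-likelihood F test with Benjamini-Hochberg adjustment over all tested genes), which placed Ctsl 59th by p among the tested genes. The rise with PyMT-M cells was 3.31-fold (1.73 ± 0.17, adjusted p = 1.50e-06). Ctsl was 2.83-fold higher with PyMT-N than with PyMT-M cells (1.50 ± 0.16, adjusted p = 3.73e-06). Each of these calls held under all 23 alternative settings, with log2 fold changes of 3.17 to 4.37, 1.61 to 3.31 and 1.06 to 1.62.

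Ctsb encodes cathepsin B, which cuts both within proteins and from their carboxyl end. Its levels were 884, 964 and 1409.7 normalised CPM alone, 697, 684 and 507 with PyMT-M cells and 1873, 1442 and 1687 with PyMT-N cells. The groups did not overlap, although the highest alone library came close to the lowest PyMT-N library. Ctsb was 1.54-fold higher with PyMT-N cells than alone (log2 fold change 0.62 ± 0.19, adjusted p = 0.0137), a call that was lost without alone replicate 1 (0.50, adjusted p = 0.0658), without alone replicate 2 (0.55, adjusted p = 0.0565) or without PyMT-N replicate 1 (0.55, adjusted p = 0.0522). It was 1.72-fold lower with PyMT-M cells than alone (-0.78 ± 0.19, adjusted p = 0.00324) but higher by 0.77 on the leukocyte scale. Between the co-cultures it was 2.65-fold higher with PyMT-N cells (1.40 ± 0.20, adjusted p = 4.84e-05), a call that held under all 23 alternatives. The overlapping Fdft1 stood at 112 ± 44.0 normalised CPM alone, 108 ± 17.7 with PyMT-M cells and 267 ± 7.25 with PyMT-N cells, so reads of the shared 774 bp could move between these genes where counting did not use the strand.

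Ctsd encodes cathepsin D, the main aspartic protease of the lysosome. It was the highest of the 7 cathepsins in cells kept alone, with 1966, 1889 and 1559.8 normalised CPM, and stood at 737, 586 and 433 with PyMT-M cells and 1954, 1572 and 1709 with PyMT-N cells. The alone and PyMT-N libraries covered the same range, and the 3 PyMT-M libraries lay below all 6 of them. Against alone the log2 fold change was -0.05 ± 0.18 with PyMT-N cells (adjusted p = 0.843, interval -0.41 to 0.31), a value that became 1.08 on the leukocyte scale, and -1.62 ± 0.19 with PyMT-M cells (adjusted p = 6.33e-06), a 3.08-fold fall that became -0.09 and was not called on that scale. The difference between the co-cultures was 2.98-fold (1.58 ± 0.19, adjusted p = 1.13e-05) and was called under all 23 alternatives. Ctsd had the lowest fold change of the 9 genes for PyMT-M co-culture against alone in 21 of 24 settings. Those that changed only the threshold repeat the main fold changes.

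Ctss and Ctsh encode cathepsin S, known for processing the invariant chain in antigen-presenting cells, and cathepsin H, an aminopeptidase. Ctss had 443, 497 and 1209.8 normalised CPM alone, 273, 179.8 and 305 with PyMT-M cells and 353, 218 and 257 with PyMT-N cells. The third alone library stood far above the other two, and both co-cultures lay below all 3 alone libraries and overlapped each other. Ctss fell by 1.37 on the log2 scale with PyMT-N cells (SE 0.35, adjusted p = 0.00561) and by 1.50 with PyMT-M cells (SE 0.35, adjusted p = 0.00313), values that became -0.23 and 0.10, not called, on the leukocyte scale. Without alone replicate 3 they were -0.76 and -0.89, still called. Ctsh had 324, 318 and 513 normalised CPM alone, 172, 118 and 122 with PyMT-M cells and 153, 167 and 190.3 with PyMT-N cells, so that the co-cultures again overlapped below the alone libraries. It fell by 1.17 with PyMT-N cells (SE 0.22, adjusted p = 4.14e-04) and by 1.48 with PyMT-M cells (SE 0.22, adjusted p = 6.15e-05), values that became -0.01 and 0.08, not called, on the leukocyte scale. Between the co-cultures the log2 difference was 0.13 for Ctss (interval -0.55 to 0.81, adjusted p = 0.806) and 0.31 for Ctsh (interval -0.12 to 0.74, adjusted p = 0.303). These intervals leave room for differences in either direction.

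Ctsz, which encodes the carboxypeptidase cathepsin Z, had 179, 174 and 253 normalised CPM alone, 109, 108 and 89.4 with PyMT-M cells and 195, 157 and 202 with PyMT-N cells. The alone and PyMT-N libraries overlapped, and the PyMT-M libraries lay below both. Its log2 fold change against alone was -0.11 ± 0.20 with PyMT-N cells (adjusted p = 0.652) and -0.97 ± 0.20 with PyMT-M cells (adjusted p = 9.26e-04), which became 1.02 and 0.59 on the leukocyte scale. It was 1.81-fold higher with PyMT-N than with PyMT-M cells (0.85 ± 0.20, adjusted p = 0.00338), and 0.43 and not called on the leukocyte scale (adjusted p = 0.142).

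Ctsa, the carboxypeptidase that protects beta-galactosidase and neuraminidase, was the member whose lowest level was with PyMT-N cells. It had 167, 166 and 216 normalised CPM alone, 90.1, 75.8 and 78.5 with PyMT-M cells and 74.9, 66.1 and 68.4 with PyMT-N cells. No groups overlapped, though the highest PyMT-N library lay just under the lowest PyMT-M library. Ctsa fell 2.61-fold with PyMT-N cells (-1.38 ± 0.19, adjusted p = 3.01e-05) and 2.23-fold with PyMT-M cells (-1.16 ± 0.19, adjusted p = 1.40e-04), values that became -0.24, not called, and 0.40 on the leukocyte scale. Between the co-cultures its difference of -0.22 ± 0.19 did not pass (adjusted p = 0.403, interval -0.60 to 0.15), and it passed only on the leukocyte scale of 23 alternatives (-0.64, adjusted p = 0.042). The overlapping Pltp stood at 1.75, 12.6 and 0.945 normalised CPM in the order alone, PyMT-M, PyMT-N, well under Ctsa.

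**Figure D2:**
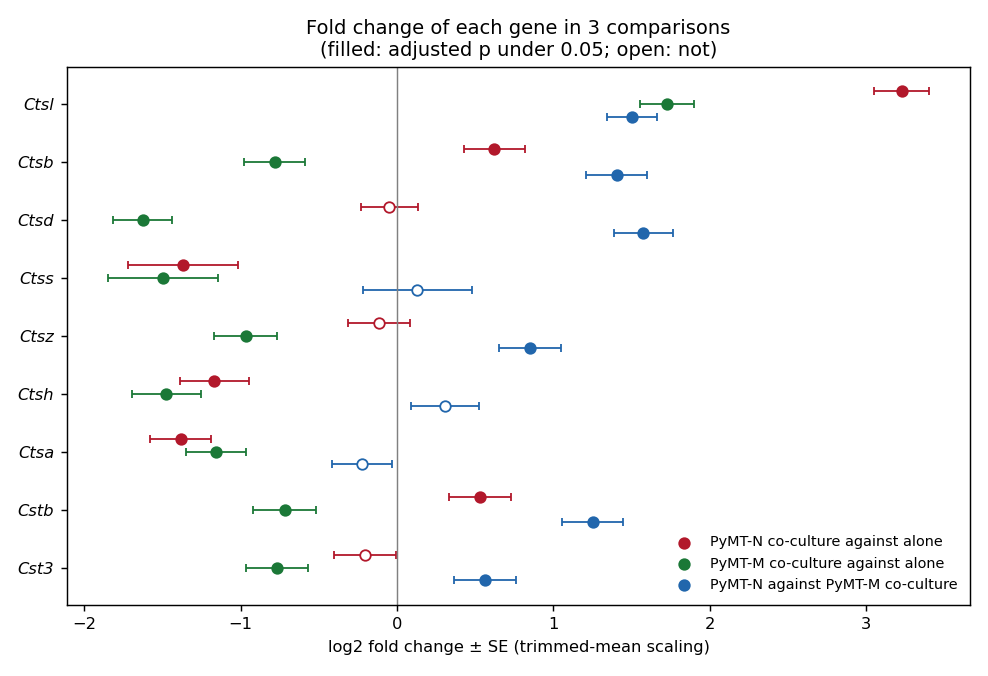
Log2 fold change ± SE (horizontal axis, trimmed-mean scaling) of each gene for PyMT-N co-culture against alone (red), PyMT-M co-culture against alone (green) and PyMT-N against PyMT-M co-culture (blue), filled where the adjusted p was under 0.05. Ctsl lies right of 0 in all 3 comparisons, and the green points of the other 8 genes lie left of 0 on this scale, of which 7 lie right of 0 on the leukocyte scale.

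Of the inhibitors, Cstb had 104, 118 and 143 normalised CPM alone, 83.0, 60.5 and 77.2 with PyMT-M cells and 187, 170.0 and 168 with PyMT-N cells. The groups did not overlap, with the order PyMT-M, alone, PyMT-N that Ctsb also had. Cstb was 1.45-fold higher with PyMT-N cells than alone (0.53 ± 0.20, adjusted p = 0.0339), a call that was lost without alone replicate 1 (0.43, adjusted p = 0.127) or replicate 2 (0.52, adjusted p = 0.0844), without any of the PyMT-N libraries (adjusted p of 0.0875, 0.0574 and 0.0595 without replicates 1, 2 and 3) and with only the compared groups in the model (adjusted p = 0.0514). It was 1.65-fold lower with PyMT-M cells than alone (-0.72 ± 0.20, adjusted p = 0.00737), a fall that became a rise of 0.84 on the leukocyte scale and missed the threshold without PyMT-M replicate 2 (-0.58, adjusted p = 0.0506). The 2.38-fold difference between the co-cultures (1.25 ± 0.20, adjusted p = 1.37e-04) was called under all 23 alternatives.

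Cst3 had 564, 535 and 699 normalised CPM alone, 444, 328 and 280.3 with PyMT-M cells and 424, 593 and 537 with PyMT-N cells. The PyMT-N libraries overlapped both other groups. It did not pass with PyMT-N cells against alone (-0.21 ± 0.20, adjusted p = 0.398) and was 1.70-fold lower with PyMT-M cells (-0.77 ± 0.20, adjusted p = 0.00421), values that became 0.96 and 0.77 on the leukocyte scale. Between the co-cultures it was 1.48-fold higher with PyMT-N cells (0.56 ± 0.20, adjusted p = 0.0370), and this call was lost under 13 of 23 alternatives, with adjusted p-values up to 0.508.

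**Figure D3:**
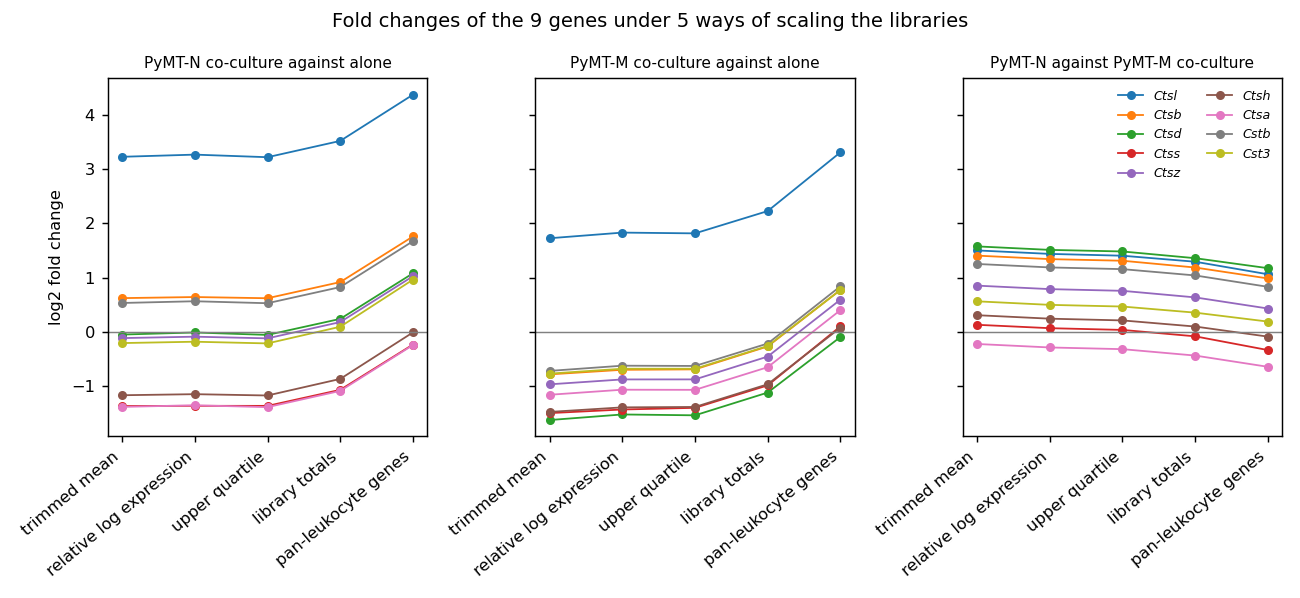
Log2 fold change (vertical axis) of the 9 genes under 5 ways of scaling the libraries (horizontal axis), in a panel for each comparison. In both comparisons with alone every line climbs from the trimmed mean to the pan-leukocyte genes, from 1.73 to 3.31 for Ctsl with PyMT-M cells, and Ctsl stays on top, while between the co-cultures the lines slope down and Ctsd, Ctsl, Ctsb and Cstb stay well above 0.

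Ratios of counts within a library need no scaling, and they showed the change in make-up directly; they were chosen after the values had been seen, and no test is given. There were 0.0587, 0.0613 and 0.0653 counts of Ctsl for each count of Ctsd in the alone libraries, 0.479, 0.549 and 0.998 with PyMT-M cells and 0.501, 0.676 and 0.637 with PyMT-N cells. All 6 co-culture libraries lay above the alone libraries, and the co-cultures overlapped each other, because with PyMT-M cells Ctsd was lower as well. The ratio of Ctsl to Ctsb was 0.108 ± 0.0311 alone, 0.610 ± 0.211 with PyMT-M cells and 0.635 ± 0.108 with PyMT-N cells, and that of Ctsl to its cytosolic inhibitor gene Cstb 0.933 ± 0.204, 5.06 ± 0.710 and 5.99 ± 0.668. The ratio of Ctsb to Cstb stayed within overlapping ranges, at 8.51, 8.14 and 9.84 alone, 8.40, 11.3 and 6.57 with PyMT-M cells and 10, 8.48 and 10.1 with PyMT-N cells. Ctsd to Cst3 stood at 3.08 ± 0.739 alone, 1.66 ± 0.120 with PyMT-M cells and 3.48 ± 1.01 with PyMT-N cells. The 9 genes together took 0.430% ± 0.0549 of a library's counts alone, 0.303% ± 0.0383 with PyMT-M cells and 0.593% ± 0.0250 with PyMT-N cells.

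Between genes, levels are compared per length, as normalised CPM per kilobase of union exon (RPKM). In cells kept alone the order ran from Ctsd at 768 RPKM over Ctss at 528, Cst3 at 473, Cstb at 202, Ctsb at 179, Ctsz at 140.1, Ctsh at 85.6 and Ctsa at 38.8 to Ctsl at 17.1. The ranges of Ctsd, Ctss and Cst3 overlapped from neighbour to neighbour, as did those of Cstb, Ctsb and Ctsz. With PyMT-N cells the order was Ctsd at 742 RPKM, Cst3 at 409, Cstb at 290.1, Ctsb at 276, Ctss at 203, Ctsl at 161, Ctsz at 128, Ctsh at 37.8 and Ctsa at 14.8, with overlap from Cstb to Ctsb, from Ctsb to Ctss and from Ctss to Ctsl. With PyMT-M cells Cst3 at 277, Ctsd at 249, Ctss at 186, Cstb at 122 and Ctsb at 104 RPKM overlapped from neighbour to neighbour, followed by Ctsz at 71.0, Ctsl at 56.9, Ctsh at 30.6 and Ctsa at 17.3, of which Ctsz and Ctsl overlapped. Ctsl had the lowest mean of the 9 in cells kept alone, and Ctsa in both co-cultures, by union exons, by the principal transcript and by its coding length. The place of Ctsl in the co-cultures depended on the length used, since its union exons span 6489 bp and its coding sequence 1002 bp: it was 7th with PyMT-M cells and 6th with PyMT-N cells by union exons and 4th in both by coding length.

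**Figure D4:**
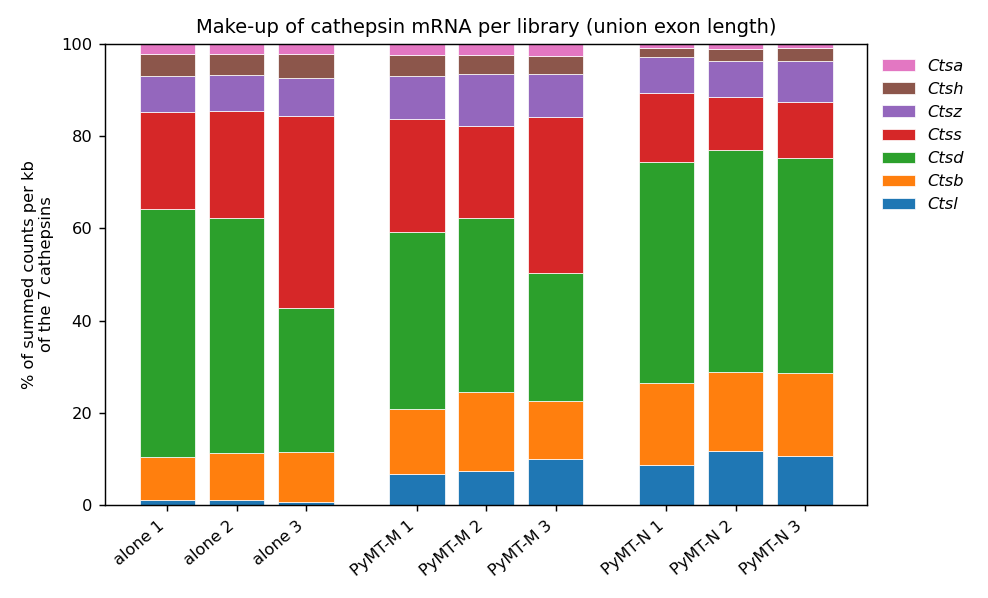
Share (vertical axis, %) of each cathepsin gene in the summed counts per kilobase of union exon of the 7 cathepsins, in a bar for each of the 9 libraries. The Ctsl segment is a thin band in the alone libraries and reaches 6.66% to 11.8% in the co-cultures, Ctss is widest in alone replicate 3 at 41.7%, and Ctsh and Ctsa are thinnest with PyMT-N cells.

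By this measure Ctsl made up 1.00% ± 0.233 of cathepsin messenger RNA alone, 8.06% ± 1.75 with PyMT-M cells and 10.4% ± 1.57 with PyMT-N cells. Ctsb made up 10.1% ± 0.760, 14.6% ± 2.28 and 17.6% ± 0.415 in the same order. Ctsd had the largest mean share in cells kept with PyMT-N cells, at 47.5% ± 0.792, beside 45.3% ± 12.4 alone and 34.6% ± 5.96 with PyMT-M cells. Ctss exceeded it in alone replicate 3 (41.7% against 31.0%) and in PyMT-M replicate 3 (33.7% against 27.7%). By coding length Ctsb had a higher mean than Ctsd with PyMT-N cells (1640 against 1419 RPKM), with overlapping ranges. Ctss made up 28.6% ± 11.4 alone, 26.1% ± 6.99 with PyMT-M cells and 12.9% ± 1.84 with PyMT-N cells. Ctsa made up 2.42% ± 0.0824 with PyMT-M cells and 0.951% ± 0.0499 with PyMT-N cells, and Ctsh 4.25% ± 0.375 and 2.44% ± 0.420. Alone the shares were 2.22% ± 0.0638 for Ctsa and 4.81% ± 0.452 for Ctsh. With the length of the principal transcript, Ctsh made up 11.5% ± 1.11 alone, 10.1% ± 0.840 with PyMT-M cells and 5.91% ± 0.980 with PyMT-N cells. The shares sum to the whole in each library, so a larger share of one gene lowers the others.

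Among the 9 profiles over the 9 libraries, each centred on its own mean, the closest pairs were Ctsb and Cstb, with a root mean square difference of 0.22 on the log2 scale, Ctsz and Cst3 with 0.25 and Ctsh and Ctsa with 0.27. Ctsl stood apart, with 1.23 to its nearest neighbour, Cstb. Among 6154 genes with a mean log2 CPM of at least 4, the profiles nearest to each member gave the following genes, with levels as means in the order alone, PyMT-M, PyMT-N. Ctsl was closest to Stat2 (0.19), which had 90.6, 334 and 829.6 normalised CPM, and to Agrn (0.20). Ctsd was closest to Mmp9 (0.13), which had 3491.5, 996 and 2969.6 normalised CPM, and to Psd4 (0.15). Ctsb was closest to Antxr2 (0.11) and Alas1 (0.16), and Cstb to Myd88 (0.14), which had 364, 208 and 503 normalised CPM. Ctsz was closest to Nfkb1 (0.11), with 238, 121 and 228 normalised CPM, and Mbd2 (0.14), and Cst3 to Derl1 (0.14) and Arpc5 (0.15). Ctsa was closest to Son (0.09) and Vps26c (0.10), Ctsh to Smad2 (0.15) and Gpr108 (0.16), and Ctss to Rap2a (0.18) and C1galt1c1 (0.23). The points share their libraries and scaling, and closeness is given as a description.

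Counts of this and the following lists stand beside the shares of all tested genes. These were 29.4% higher and 23.6% lower with PyMT-N cells, 28.2% and 27.9% with PyMT-M cells, and 19.1% and 15.5% between the co-cultures. On the leukocyte scale they were 58.2% and 6.82%, 64.9% and 2.05%, and 11.9% and 27.6% in that order. Of 16 other cathepsin genes, 5 were tested, of which 1 was called higher and 4 lower with PyMT-N cells against alone, 0 higher and 4 lower with PyMT-M cells, and 1 higher and 0 lower between the co-cultures. On the leukocyte scale 1 was higher and 1 lower with PyMT-N cells and 0 higher and 1 lower with PyMT-M cells. The gene that rose was Ctsc, which encodes the dipeptidyl peptidase that activates the serine proteases of neutrophil granules: it stood at 177 normalised CPM alone, 69.9 with PyMT-M cells and 604 with PyMT-N cells. Its log2 fold change was 1.79 with PyMT-N cells (adjusted p = 3.74e-06) and -1.33 with PyMT-M cells (adjusted p = 9.55e-05) against alone, and 3.11 between the co-cultures (adjusted p = 2.86e-08), values that became 2.92, 0.25 (not called) and 2.67 on the leukocyte scale. Ctsg, a serine protease of primary granules, had 19.3 normalised CPM alone and 0.542 with PyMT-M cells and was at 0 in all 3 PyMT-N libraries, which made it at least 75.5-fold lower there than alone with a floor of 3 counts over the group. Ctse, an aspartic protease, had 17.0 normalised CPM alone, 5.27 with PyMT-M cells and 3.79 with PyMT-N cells, and against alone its log2 fold changes on the leukocyte scale were -0.19 and -1.17, neither called. Of 23 other cystatins and stefins listed, 21 were counted and 7 tested, of which 2 were called higher and 2 lower with PyMT-N cells, 1 higher and 4 lower with PyMT-M cells, and 1 in each direction between the co-cultures. Their median log2 fold change was -0.67 with PyMT-N cells and -1.01 with PyMT-M cells against alone. Scaled to the pan-leukocyte genes, 2 were called higher and 1 lower with PyMT-N cells and 1 higher and 1 lower with PyMT-M cells, with medians of 0.46 and 0.55. Gm5483, a stefin A gene, stood at 87.9 normalised CPM alone, 43.9 with PyMT-M cells and 137 with PyMT-N cells, the same order as Cstb, but the stefin A genes are near-identical copies and their counts are uncertain. Cst7, which encodes cystatin F, fell from 8.71 normalised CPM alone to 0.304 (PyMT-M) and 0.785 (PyMT-N; log2 fold changes -4.72, adjusted p = 2.40e-05, and -3.44, adjusted p = 1.36e-04), falls that were called on the leukocyte scale too (-3.26 and -2.33), and Cst6, a further cystatin, had 0.149, 6.58 and 2.65 normalised CPM in the order alone, PyMT-M, PyMT-N.

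Serpins that bind cathepsins were tested for 3 of 6 genes. Serpinb6a, which inhibits cathepsin G among other proteases, rose from 21.9 normalised CPM alone to 176 with PyMT-M cells (2.87, adjusted p = 3.37e-05) and 403 with PyMT-N cells (4.07, adjusted p = 1.14e-06). Serpinb1a, an inhibitor of neutrophil serine proteases, stood at 134, 67.9 and 19.3 normalised CPM in the same order, a change of -0.95 (adjusted p = 0.00681) and of -2.77 (adjusted p = 2.23e-06), which became 0.62 (not called) and -1.62 on the leukocyte scale. Serpinb6b, the last of the 3, had 5.79, 2.03 and 1.24 normalised CPM, with values against alone of 0.19 (PyMT-M) and -1.02 (PyMT-N) on the leukocyte scale, neither called.

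**Figure D5:**
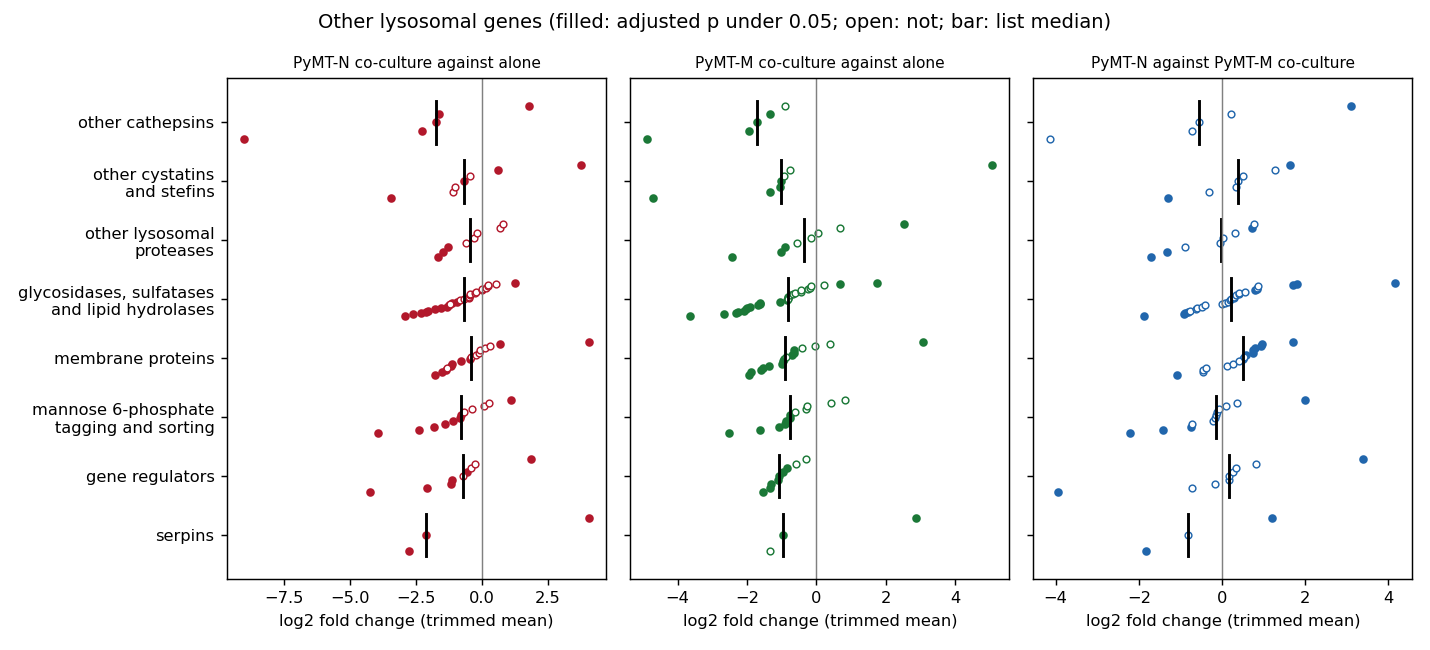
Log2 fold change (horizontal axis, trimmed-mean scaling, a separate range in each panel) of every tested gene of 8 lists of other lysosomal genes, with a point per gene, filled where the adjusted p was under 0.05, and a bar at the list's median. All 8 bars lie left of 0 in both comparisons with alone on this scale, and most list medians lie right of 0 on the leukocyte scale. On that scale the median of all tested genes was 1.25 with PyMT-N and 1.48 with PyMT-M cells, and every list median lay below it. The point at the far left is Ctsg, which was at 0 with PyMT-N cells, so that its plotted value is no bound.

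The other lysosomal genes give the setting in which the cathepsins moved. Of 27 glycosidases, sulfatases and lipid hydrolases, 1 was called higher and 11 lower with PyMT-N cells against alone, 2 higher and 15 lower with PyMT-M cells, and 5 higher and 4 lower between the co-cultures, with medians of -0.67, -0.83 and 0.21. On the leukocyte scale these were 9 higher and 5 lower, 9 higher and 3 lower, and 3 higher and 7 lower, with medians of 0.46, 0.71 and -0.22. Against alone, all tested genes were 58.2% higher and 6.82% lower on that scale with PyMT-N cells and 64.9% and 2.05% with PyMT-M cells. Psap, the precursor of the saposins that present lipids to their hydrolases, fell from 5921 normalised CPM alone to 1197 with PyMT-M cells (-2.31, adjusted p = 5.09e-08) and 1380.4 with PyMT-N cells (-2.10, adjusted p = 4.86e-08). Hexa, a subunit of beta-hexosaminidase, fell from 455 to 107 (-2.09, adjusted p = 4.03e-07) and to 60.6 (-2.91, adjusted p = 1.01e-08). These falls were called on the leukocyte scale too, at -0.74 and -0.96 for Psap and -0.53 and -1.77 for Hexa with PyMT-M and PyMT-N cells. Lipa, the lysosomal acid lipase, had 911 normalised CPM alone, 145 with PyMT-M cells and 474 with PyMT-N cells, a difference of 1.71 between the co-cultures (adjusted p = 6.62e-06), and Gm2a, the GM2 activator, 124, 24.7 and 87.5 (1.81, adjusted p = 6.36e-04). Against alone Lipa stood at -1.09, called, with PyMT-M cells and at 0.20, not called, with PyMT-N cells on the leukocyte scale. Of the genes lower with PyMT-N than with PyMT-M cells, Galns had 13.8 against 50.6 normalised CPM (-1.88, adjusted p = 0.00513), Gaa 25 against 46.9 and Hexa the values above. Of 8 other lysosomal proteases, 0 were called higher and 3 lower with PyMT-N cells, 1 higher and 3 lower with PyMT-M cells, and 1 higher and 2 lower between the co-cultures. Against alone the counts were 2 higher and 0 lower and 6 higher and 1 lower on the leukocyte scale, beside the same shares of all tested genes. Napsa, an aspartic protease related to cathepsin D, stood at 96.1, 17.5 and 29.7 normalised CPM in the order alone, PyMT-M, PyMT-N, with leukocyte-scale values against alone of -0.89 with PyMT-M cells (adjusted p = 0.0200) and -0.54 with PyMT-N cells (not called). Lgmn, the asparaginyl endopeptidase that cleaves cathepsin precursors, stood at 47.3, 43.9 and 17.7, with a difference of -1.31 between the co-cultures (adjusted p = 0.0367). Its leukocyte-scale values against alone were 1.64 with PyMT-M cells (called higher) and -0.10 with PyMT-N cells (not called).

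Of 16 tested lysosomal membrane and lipid transport genes, 2 were called higher and 7 lower with PyMT-N cells against alone, 1 higher and 11 lower with PyMT-M cells, and 8 higher and 1 lower between the co-cultures, with medians of -0.42, -0.90 and 0.51. On the leukocyte scale these were 8 higher and 1 lower, 10 higher and 0 lower, and 2 in each direction, with medians of 0.71, 0.66 and 0.09. Against alone, the shares of all tested genes on that scale were 58.2% higher and 6.82% lower, and 64.9% and 2.05%. Laptm4b rose from 9.19 normalised CPM alone to 87.7 with PyMT-M cells (3.09, adjusted p = 2.03e-05) and 171 with PyMT-N cells (4.05, adjusted p = 9.40e-07). Cln3 fell from 690.4 to 187 (-1.89, adjusted p = 4.29e-06) and 205 (-1.76, adjusted p = 5.88e-06), values that became -0.34, not called, and -0.64, called, on the leukocyte scale. Scarb2, the receptor that carries beta-glucocerebrosidase to the lysosome, stood at 118, 45.0 and 146 normalised CPM and was higher by 1.70 with PyMT-N than with PyMT-M cells (adjusted p = 4.32e-05). Npc2, a cholesterol carrier, stood at 649, 326 and 625, a difference of 0.94 between the co-cultures (adjusted p = 7.41e-04).

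In the sorting step, 12 genes of mannose 6-phosphate tagging and receptor transport were tested, with 1 called higher and 7 lower with PyMT-N cells against alone, 0 higher and 7 lower with PyMT-M cells, and 1 higher and 3 lower between the co-cultures. Counts against alone were 3 higher and 2 lower and 8 higher and 1 lower on the leukocyte scale. Shares of all tested genes there were 58.2% higher and 6.82% lower, and 64.9% and 2.05%. Igf2r, the large mannose 6-phosphate receptor, stood at 65.5 normalised CPM alone, 35.0 with PyMT-M cells and 140.4 with PyMT-N cells, with log2 fold changes of -0.90 (adjusted p = 0.00509) and 1.10 (adjusted p = 7.84e-04) against alone, which became 0.65 (not called) and 2.22 on the leukocyte scale. Sort1, the sorting receptor sortilin, fell from 277 to 47.9 (-2.52, adjusted p = 2.43e-06) and to 18.2 (-3.95, adjusted p = 5.15e-08), falls that were called on the leukocyte scale too (-0.99 and -2.82). The fall of Sort1 with PyMT-N cells was larger than with PyMT-M cells by 1.43 (adjusted p = 0.00150).

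Of 9 regulators of lysosomal genes, 1 was called higher and 5 lower with PyMT-N cells against alone, 0 higher and 7 lower with PyMT-M cells, and 1 in each direction between the co-cultures. With leukocyte scaling the counts against alone were 4 higher and 2 lower and 4 higher and 0 lower. Shares of all tested genes there were 58.2% higher and 6.82% lower, and 64.9% and 2.05%. Tfeb, the namesake of the family that binds TCACGTG, stood at 112 normalised CPM alone, 45.3 with PyMT-M cells (-1.34, adjusted p = 0.00113) and 27.4 with PyMT-N cells (-2.07, adjusted p = 4.46e-05), values that became 0.22, not called, and -0.94, called, on the leukocyte scale. Its relative Tfec went from 13.9 to 4.42 with PyMT-M cells (-1.54, adjusted p = 0.0115) and to 48.5 with PyMT-N cells (1.85, adjusted p = 5.06e-04), a difference of 3.39 between them (adjusted p = 4.21e-06). On the leukocyte scale Tfec stood at -0.03, not called, with PyMT-M cells and at 2.96 with PyMT-N cells. Rragd, a small GTPase that acts in nutrient sensing at the lysosome, had 52.2 normalised CPM alone, 42.4 with PyMT-M cells and 2.75 with PyMT-N cells (-3.94 between the co-cultures, adjusted p = 8.38e-07). Promoters with TCACGTG were held by 4.29% of 27025 genes in the promoter table, by 2 of the 6 matched cathepsins and cystatins (Ctsd and Ctsa), by 6 of 21 matched glycosidases, sulfatases and lipid hydrolases, by 4 of 14 matched membrane genes, by 4 of 9 sorting genes, by 2 of 6 other lysosomal proteases and by 2 of 9 regulators. They were held by 0 of 14 other cathepsins, 0 of 17 other cystatins and stefins and 0 of 4 serpins matched. Under trimmed-mean scaling Ctsd had its lowest mean with PyMT-M cells and Ctsa with PyMT-N cells. The difference of Ctsa between the co-cultures was not called. The root mean square difference of Ctsd and Ctsa over the 9 libraries was 0.81. Whether this core has a part in these levels was not tested.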

How the data were processed

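The deposited values were whole-number counts of reads per Ensembl gene, with no normalisation. The submitters' processing notes name STAR and the builds GRCm38 and mm10. The sources used here do not give the counting tool, its strand setting or the annotation. The table held 54532 identifiers, of which 54495 were given a symbol by GENCODE M21 and 37 were not. With edgeR 4.0.16 in R 4.3.3, filterByExpr removed genes of low counts (minimum 10 a library, 15 in all), trimmed-mean (TMM) factors scaled the libraries, and all 9 libraries entered one model with a mean per group. Groups were compared by the quasi-likelihood F test with robust moderation, and a gene was called at a Benjamini-Hochberg adjusted p under 0.05 over all tested genes. SE is the size of the log2 fold change over the root of F, and intervals are at 95%. Normalised CPM are CPM with the library total multiplied by its TMM factor. The 23 alternatives were other size factors (relative log expression, upper quartile, library totals, 24 tested pan-leukocyte genes), no filter or at least 50 counts in 3 libraries, DESeq2 1.42.0, voom of limma 3.58.1, other settings of edgeR, only the compared groups, the replicate number as a block, an adjusted p under 0.01, a minimum log2 fold change of 1, and leaving out each library. Other lengths, the motif of paired GAAA and marker sums without Lyz2 or Vim were added after seeing the data. The code was tested on simulated data, fitted with only the compared groups and with changes put into genes drawn from all tested levels. In the 3 comparisons 2%, 0% and 2% of 1.5-fold changes were called. For 2-fold changes these were 6%, 4% and 16%, and for 4-fold changes 54%, 46% and 58%. A gene that was not called is therefore not shown to be unchanged. The 9 members are always named. From each pathway list up to 2 called genes of smallest p per direction and comparison could be named, and for likeness the 2 nearest genes per member, of which 1 is not reported here. The members, lists and tests were chosen with earlier results of these data known. No protein sequences were used here.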

Additional observations from a re-analysis of the deposited data

Results flagged for a closer look

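Of the 9 genes, 6 had effects that differed between the co-cultures by the test of PyMT-N against PyMT-M co-culture, which is also the difference of their effects against the shared alone libraries. The log2 differences were 1.50 for Ctsl, 1.40 for Ctsb, 1.58 for Ctsd, 1.25 for Cstb, 0.85 for Ctsz and 0.56 for Cst3, with adjusted p-values from 3.73e-06 to 0.0370 (edgeR quasi-likelihood F test, 34.6% of all tested genes called). The call of Cst3 was lost under 13 of 23 alternatives, and that of Ctsz under 2, of which 1 was the leukocyte scale (0.43, adjusted p = 0.142). For Ctsb and Cstb the effects against alone had opposite signs, 0.62 and -0.78 for Ctsb and 0.53 and -0.72 for Cstb, and on the leukocyte scale they had the same sign, with 1.76 and 0.77 for Ctsb and 1.67 and 0.84 for Cstb. The epithelial markers, which summed to 147 normalised CPM with PyMT-M cells and 3066 with PyMT-N cells, and Cd14, with 60.7 and 1497, also differed between these libraries, and their part in the differences was not tested.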

How the results depend on the processing

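Ctsl was called in the same direction in all 3 comparisons under all 23 alternatives, and Ctsb, Ctsd and Cstb between the co-cultures. Counts of called genes over all genes stayed within 1.5 times the main count. Scaled to pan-leukocyte genes, 6 of the 9 genes were called higher and 0 lower with PyMT-N cells against alone. With PyMT-M cells 5 were called higher and 0 lower, and between the co-cultures 4 higher and 1 lower. Shares of all tested genes in the same order were 58.2% higher and 6.82% lower, 64.9% and 2.05%, and 11.9% and 27.6%. That scaling turned the sign against alone with PyMT-N cells for Ctsd (1.08), Ctsz (1.02) and Cst3 (0.96), and with PyMT-M cells for Ctsb (0.77), Ctss (0.10), Ctsz (0.59), Ctsh (0.0776), Ctsa (0.40), Cstb (0.84) and Cst3 (0.77). Between the co-cultures it turned Ctss (-0.34) and Ctsh (-0.0875). By library totals, 4 genes were called lower with PyMT-M cells, and the sign turned for Ctsd (0.24), Ctsz (0.18) and Cst3 (0.0944) with PyMT-N cells and for Ctss (-0.0821) between the co-cultures. Other sign changes were of values near 0 that were not called. With PyMT-N cells against alone they were Ctsd with no filter (0.0206) and Ctsz with voom (0.0814), and leaving out each library gave -0.14 to 0.0367 for Ctsd and -0.21 to 0.0729 for Ctsz. Between the co-cultures leaving out each library gave -0.0841 to 0.28 for Ctss. With an adjusted p under 0.01, or with a log2 fold change of at least 1, 1 gene was called higher with PyMT-N cells, and with the latter 4 were called lower with PyMT-M cells. Leaving out each library gave 1 to 3 genes called higher with PyMT-N cells and 7 to 8 called lower with PyMT-M cells. The cause of these changes was not tested. Of called genes, 55.5% were higher with PyMT-N cells against alone, 67.1% by library totals and 89.5% by pan-leukocyte genes. With PyMT-M cells they were 50.2%, 70.5% and 96.9%, and between the co-cultures 55.2%, 40.4% and 30.1%. The same numbers recur in the column names of each group, and whether they mark shared mice or days is not given. Deviations of libraries with the same number had correlations of -0.08 to 0.03, and of different numbers -0.06 to 0.07. With 3 libraries a group, these values cannot show whether the libraries were paired. With the number as a replicate block, 3 and 3, 1 and 8, and 5 and 0 of the 9 genes were called higher and lower in the 3 comparisons, and 6103, 6517 and 3967 genes in all. Of the ranks by level per length, 31 changed with another length. At 1641049 to 4524563 counts a library, changes of genes near 2 CPM rest on few reads, and all 9 genes stood well above that. The labels give an input of 150 pg RNA for each library, and the effect of so small an input on these levels was not tested.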
